A study of Mus musculus with 155 samples.

Results

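The Wnt target and feedback genes are 10 genes that Wnt/β-catenin signaling is known to switch on: Axin2, Nkd1, Rnf43, Dkk1, Lgr5, Lef1, Tcf7, Sp5, T (Brachyury) and Cdx1. They were chosen by name, with earlier results of these data known. All 10 were found, by gene identifier, among the 55471 genes of the count tables. In this pathway a Wnt ligand at the cell surface, or an inhibitor of the kinase GSK3, stops the destruction of β-catenin, which then enters the nucleus and switches on genes together with TCF/LEF factors. Many of these targets act back on the pathway. Axin2 rebuilds the destruction complex, Nkd1 acts on Dishevelled, Rnf43 is a ubiquitin ligase that removes Frizzled receptors, Dkk1 is a secreted blocker of the co-receptor LRP6, and Lgr5 is an R-spondin receptor. Lef1 and Tcf7 are themselves TCF/LEF factors. Sp5, T and Cdx1 are transcription factors of the early embryo and primitive streak.

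The counts came from 42 RNA-seq libraries of KH2 FLIP-in mouse ESCs and of cells derived from them. Every line carried a doxycycline (Dox)-inducible single extra copy of SNAP-HA-tagged H3.3, either wild type (WT-H3.3) or with lysine 27 changed to methionine (H3.3K27M) or leucine (H3.3K27L). Dox was given to every group, including WT-H3.3. Undifferentiated ESCs were sampled at 4, 8, 24 and 72 h of Dox in all 3 lines, and in the WT-H3.3 line given GSK343, which inhibits PRC2 and is unrelated to GSK3, with 2 replicates each (32 libraries). ESC medium held LIF and the 2i inhibitors, one of which, CHIR99021, inhibits GSK3. Inhibition of GSK3 is known to stabilize β-catenin, and the protein was not measured here. Cells differentiated with retinoic acid (RA), without LIF or 2i, were sampled at 24 and 72 h of Dox in the 3 lines, with 1 library each (6 libraries). Cultures differentiated toward oligodendrocyte progenitor cells (OPCs), through embryoid bodies treated with RA and purmorphamine, were sampled at 24 and 72 h of Dox in WT-H3.3 and H3.3K27M, with 1 library each (4 libraries). How many clones stood behind each line is not given in the sources used here, so a line and its clone cannot be told apart. The methods state that replicates were made weeks apart.

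Libraries held 68378 to 21161392 counts in ESCs, 2239137 to 22269533 in RA-treated cells and 7499258 to 12387113 in OPCs. The lowest belongs to replicate 2 of H3.3K27L ESCs at 72 h, in which 1 read is worth 14.6 CPM (the count scaled to the library's total), and the next lowest ESC library held 1247934. Levels are given as CPM scaled between libraries, and are not comparable between genes, because the library kit of each library and hence the effect of gene length is not known. The labelled cell types carried most of their markers. Summed over 7 genes, ESC markers such as Pou5f1 and Nanog reached 2567 to 5750 CPM in ESCs and at most 359 CPM elsewhere. RA response genes summed to 457 to 1148 CPM in RA-treated cells and to at most 26.5 CPM in ESCs. The OPC markers Olig1 and Olig2 were high in OPCs of both lines, but Pdgfra, which defines these cells, was 17.3 to 25.6 CPM with WT-H3.3 and 0.634 to 0.89 CPM with H3.3K27M, and Sox10 was at most 3.72 CPM in either line.

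Libraries of RA-treated cells at 72 h and of OPCs stood apart from those of ESCs and of RA-treated cells at 24 h. Eef1a1, a translation factor that every cell uses, had 5310 to 9396 CPM in ESCs (without the shallow library) and 4306 to 4527 CPM in RA-treated cells at 24 h, but 114 to 136 CPM in RA-treated cells at 72 h and 38.8 to 95.9 CPM in OPCs. Ctnnb1, which encodes β-catenin, had 342 to 678, 709 to 872, 20.3 to 22.7 and 7.45 to 9.43 CPM in the same order. Of 9 broadly used genes, picked after the values were seen, 6 passed both thresholds between RA-treated cells at 72 and 24 h (beside 42.9% of all genes), 6 between OPCs and ESCs (beside 67%) and 2 between RA-treated cells at 24 h and ESCs (beside 43.4%), so that the sets of libraries differ by the size of such gaps rather than by these counts. The 6 between 72 and 24 h did not all fall, since 2 were higher and 4 lower at 72 h. Hsp90ab1 had 8591 to 11960 CPM at 72 h against 4400 to 4709 CPM at 24 h, and Actb and Rpl13a also had higher levels at 72 h. None of the 9 passed in the line comparisons within ESCs or within RA-treated cells, and 1 did in OPCs. By another measure, the slope of log2 level on log2 gene length over 8928 genes, the RA-treated cells at 24 h stood apart, with 0.398 to 0.533 against -0.186 to 0.272 in ESCs at 4 to 24 h, 0.198 to 0.267 in ESCs at 72 h (without the shallow library), -0.041 to -0.005 in RA-treated cells at 72 h and 0.029 to 0.046 in OPCs. Comparisons between stages are therefore given last, since the stage and the way the library was made cannot be told apart in any of them. The slope also divided replicates within ESCs at 4 to 24 h. Replicates 1 and 2 had -0.119 to -0.072 and 0.049 to 0.271 with WT-H3.3, and -0.065 to 0.055 and 0.221 to 0.244 with H3.3K27M. With H3.3K27L the order was opposite, at 0.248 to 0.272 and -0.011 to 0.044. The part of this in the ESC comparisons was not tested.

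**Figure D1:**
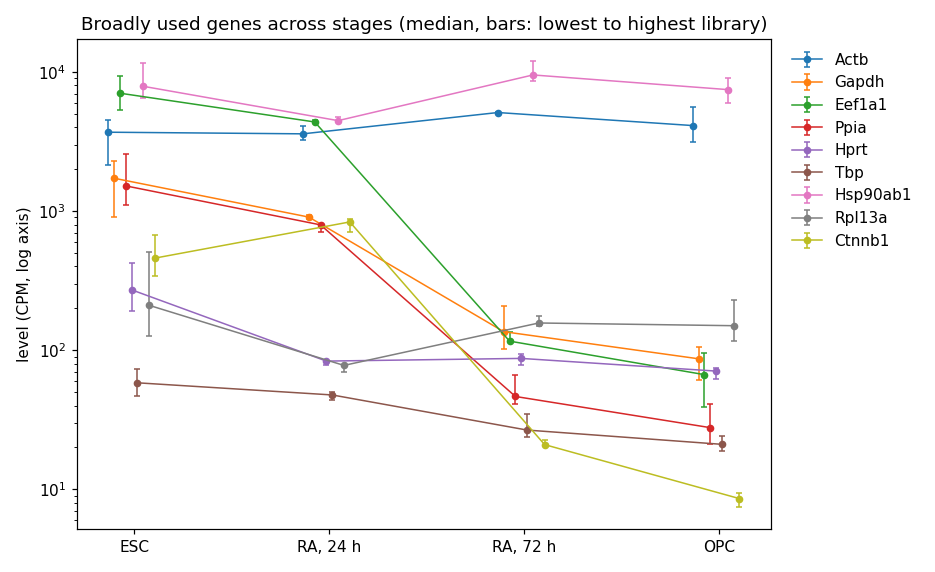
Level in CPM (log axis) of 9 broadly used genes in ESCs (31 libraries, the shallow one left out), RA-treated cells at 24 h and at 72 h (3 libraries each) and OPCs (4 libraries). Points are medians and bars run from the lowest to the highest library. Eef1a1, Ctnnb1, Ppia and Gapdh lie far lower in RA-treated cells at 72 h and in OPCs than in the other libraries. Actb, Hsp90ab1 and Rpl13a lie higher in RA-treated cells at 72 h than at 24 h.

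CTTTGA is a form of the core at which TCF/LEF factors bind DNA, and only these letters were searched for. In RefSeq promoters of GRCm38.p6, windows of 300 bases that run from 250 bases before a transcription start to 50 after it, 8 of the 10 genes had at least 1 window, 13 in all. Lgr5 and Cdx1 had none in this table. The 6 letters CTTTGA, on either strand, were in 4 of the 13 windows, and in 16% of all 32851 windows. These were the windows of Sp5, Dkk1 and T and the most downstream of 4 Lef1 starts. Sp5, Dkk1 and this Lef1 window each hold the letters at 2 places, as do 1.73% of all windows. The 4 windows are printed to show those letters (in capitals, read on the strand of the gene, so that TCAAAG is a match on the other strand), together with that of Axin2, the gene with the largest line difference in the main tests, which holds none. The windows lie at chr2:70474673-70474972 on the plus strand (Sp5), chr19:30549447-30549746 on the minus strand (Dkk1), chr17:8434173-8434472 on the plus strand (T), chr3:131156044-131156343 on the plus strand (Lef1) and chr11:108920099-108920398 on the plus strand (Axin2).
Sp5: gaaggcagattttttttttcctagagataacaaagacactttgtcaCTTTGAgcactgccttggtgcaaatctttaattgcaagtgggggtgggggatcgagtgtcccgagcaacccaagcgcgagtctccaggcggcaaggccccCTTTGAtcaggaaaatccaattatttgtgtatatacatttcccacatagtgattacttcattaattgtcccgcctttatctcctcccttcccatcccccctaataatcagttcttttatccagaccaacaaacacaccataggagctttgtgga
Dkk1: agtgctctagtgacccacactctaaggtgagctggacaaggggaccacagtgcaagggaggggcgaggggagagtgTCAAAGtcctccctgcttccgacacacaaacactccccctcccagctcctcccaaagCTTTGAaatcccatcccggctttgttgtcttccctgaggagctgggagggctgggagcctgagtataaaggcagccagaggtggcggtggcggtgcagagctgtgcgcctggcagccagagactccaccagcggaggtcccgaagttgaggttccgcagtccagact
T: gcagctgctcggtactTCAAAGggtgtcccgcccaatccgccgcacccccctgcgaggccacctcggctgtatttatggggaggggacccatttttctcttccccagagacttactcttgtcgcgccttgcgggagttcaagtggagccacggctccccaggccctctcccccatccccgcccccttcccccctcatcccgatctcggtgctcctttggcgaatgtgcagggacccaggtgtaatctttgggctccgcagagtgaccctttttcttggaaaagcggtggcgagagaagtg
Lef1: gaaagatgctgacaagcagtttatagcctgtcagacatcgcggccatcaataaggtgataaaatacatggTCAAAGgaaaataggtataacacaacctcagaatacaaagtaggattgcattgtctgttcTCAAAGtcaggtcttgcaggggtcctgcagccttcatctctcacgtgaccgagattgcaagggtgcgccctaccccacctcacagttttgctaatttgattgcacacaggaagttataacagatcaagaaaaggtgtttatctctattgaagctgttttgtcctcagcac
Axin2: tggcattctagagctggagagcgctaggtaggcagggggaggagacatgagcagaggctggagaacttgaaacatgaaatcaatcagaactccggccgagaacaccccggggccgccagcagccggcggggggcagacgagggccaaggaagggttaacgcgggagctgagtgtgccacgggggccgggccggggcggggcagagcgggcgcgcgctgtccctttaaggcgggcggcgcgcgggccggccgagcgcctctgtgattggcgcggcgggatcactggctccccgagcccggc
In Sp5 the matches start 204 and 104 bases before the transcription start. In Dkk1 they start 174 and 117 bases before it, in the Lef1 window 180 and 120 bases and in T 234 bases before it. A match is a description of the letters only, and its absence from the Axin2 window says nothing of sites elsewhere.

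The line comparison in OPCs asked how H3.3K27M acts in a cell type near to the gliomas in which this mutation occurs. All 3 of the genes that could be tested changed. Axin2 and Lgr5 were higher and Tcf7 was lower with H3.3K27M (edgeR's quasi-likelihood test, 2 libraries against 2). The libraries of 24 and 72 h stood in for replicates, so the p-values measure the spread between them, and whether they came from separate differentiations is not given in the sources used here. Calls were common in this comparison, with 27.9% of the 12467 genes tested past both thresholds (adjusted p below 0.05, and more than 2-fold higher or lower), so 3 of 3 is to be read against that share. The other 7 genes were left out of the test, Nkd1 because it lies on chromosome 8 and the rest for low counts.

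Axin2 (chr11:108781663-108812097, mm9, plus strand) had 10.7 CPM at 24 h and 10.04 CPM at 72 h with WT-H3.3, and 54.4 and 55.8 CPM with H3.3K27M. These rest on 110, 89, 343 and 376 reads. The H3.3K27M libraries both lay above the WT-H3.3 libraries, by 2.40 on the log2 scale (SE 0.17, 5.28-fold, adjusted p = 1.29e-06), and without any 1 of the 4 libraries the difference was 2.37 to 2.42.

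Nkd1 (chr8:91045243-91118786, mm9) had 4.76 and 4.40 CPM with WT-H3.3 and 29.8 and 26.9 CPM with H3.3K27M. The study sets chromosome 8 aside because of a potential duplication in all of its clones. In the fit that kept this chromosome, Nkd1 was 2.62 higher on the log2 scale (SE 0.22, 6.14-fold, adjusted p = 4.54e-06) with H3.3K27M. Copy number was not measured here, and its part in this difference was not tested.

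Rnf43 went the other way at low depth, with 7 and 18 reads with WT-H3.3 and 0 and 0 reads with H3.3K27M. Counting 3 reads in each H3.3K27M library as the limit that a count of 0 allows (a floor of 0.46 CPM on average, for counting error only), Rnf43 was at least 2.94-fold lower. This bound rests on the WT-H3.3 library of 72 h (2.03 CPM), and against that of 24 h alone (0.68 CPM) it is 1.48-fold. Dkk1 had 2 and 2 reads with WT-H3.3 and 0 and 1 with H3.3K27M, which is too few for a comparison.

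Lgr5 (chr10:114887367-115024836, mm9, minus strand) had 11.5 and 11.7 CPM with WT-H3.3 and 20.1 and 28.3 CPM with H3.3K27M. The groups did not overlap, and the difference was 1.06 on the log2 scale (SE 0.22, adjusted p = 0.00208), close to the fold threshold. Without the H3.3K27M library of 72 h it was 0.80 (adjusted p = 0.0111), under that threshold.

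Of the TCF/LEF factors, Tcf7 (chr11:52065873-52096681, mm9, minus strand) had 11.1 and 7.67 CPM with WT-H3.3 and 3.01 and 1.63 CPM with H3.3K27M. Both H3.3K27M libraries lay lower, a log2 difference of -2.02 (SE 0.37, adjusted p = 9e-04). Lef1 had at most 10 reads in any OPC library and could not be tested. Sp5 had at most 4 reads, T at most 3, and Cdx1 had 0 reads in all 4 libraries.

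**Figure D2:**
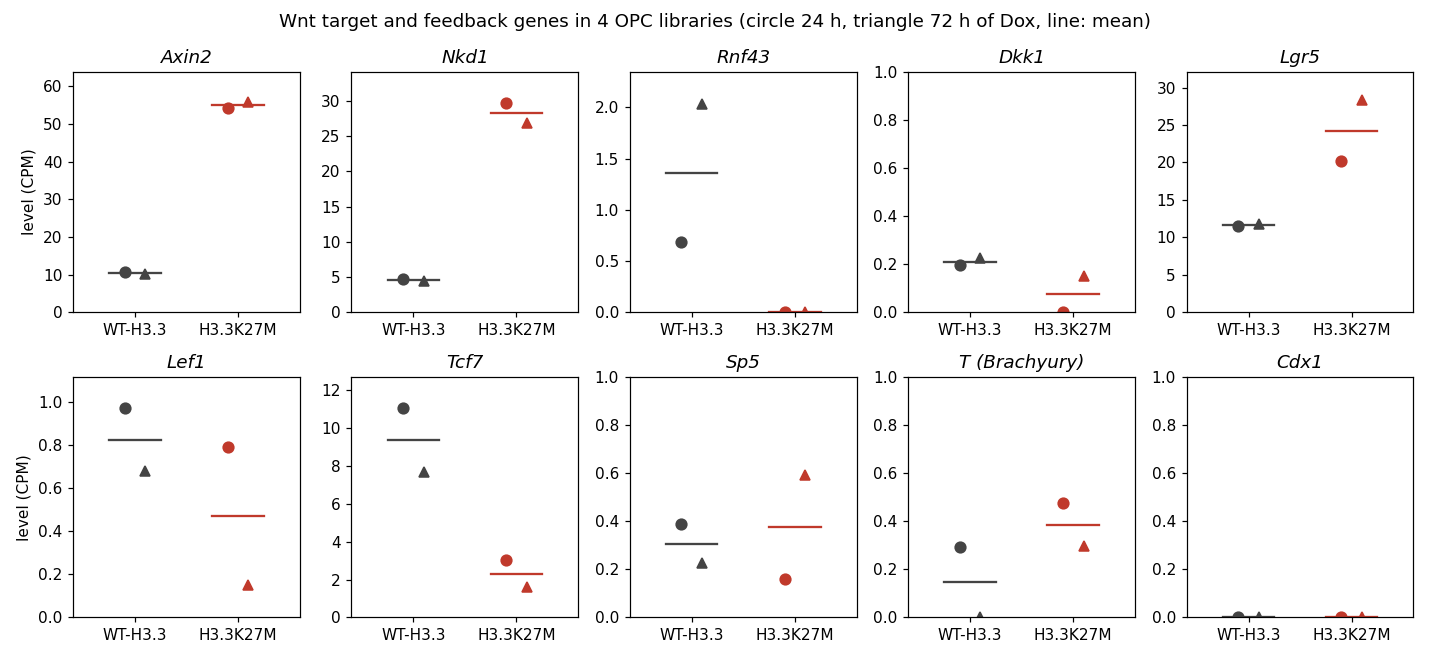
Level in CPM of each gene in the 4 OPC libraries, WT-H3.3 in grey and H3.3K27M in red, with circles for 24 h and triangles for 72 h of Dox and a line at the mean of each line. Axin2, Nkd1 and Lgr5 are higher and Tcf7 is lower in both H3.3K27M libraries, while Dkk1, Lef1, Sp5, T and Cdx1 stay under 1 CPM.

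Other genes of the pathway, from lists of 83 ligands, receptors, inhibitors, transduction proteins, nuclear factors and further targets, also divided the OPC lines. Of the 59 that could be tested 10 rose and 13 fell with H3.3K27M, which is 39.0% beside 27.9% of all genes, and their median difference was -0.07 on the log2 scale beside 0.00 over all genes. Of 9 secreted and membrane inhibitors tested 5 fell and 1 rose, where 15% of all genes fell and 12.9% rose. Frzb, a secreted Frizzled-related inhibitor, had 121 and 148 CPM with WT-H3.3 and 12.0 and 13.9 CPM with H3.3K27M (a log2 difference of -3.38, SE 0.18, adjusted p = 2.24e-07). Wif1, which binds Wnt ligands outside the cell, fell from 51.0 and 67.6 CPM to 4.91 and 5.34 CPM (log2 difference -3.54, SE 0.23). Of 15 receptors tested 3 rose and 2 fell. Fzd9 rose from 7.00 and 8.55 CPM to 76.7 and 81.5 CPM (3.33 on the log2 scale, SE 0.18), and Fzd2 from 25.3 and 31.7 CPM to 114 and 119 CPM (2.02, SE 0.16). Of 11 ligands and ligand factors 2 rose, among them Wnt7b, at 40.6 and 57.4 CPM with WT-H3.3 and 221 and 230 CPM with H3.3K27M, and 5 fell, among them Wnt9a, at 26.3 and 37.8 CPM and at 1.90 and 2.23 CPM.

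Markers of other cell types moved with the line in OPCs, though not all in the same direction. The fibroblast markers (7 genes) summed to 626 and 680 CPM with WT-H3.3 and to 26.7 and 30.9 CPM with H3.3K27M. Neuron markers (5 genes) summed to 211 and 227 CPM with WT-H3.3 and 38.0 and 48.3 CPM with H3.3K27M, and extraembryonic endoderm markers (7 genes) to 105 and 125 CPM against 24.0 and 26.8 CPM. Neural progenitor markers (6 genes) summed to 3532 and 3881 CPM with WT-H3.3 and 3862 and 5341 CPM with H3.3K27M, with 3 genes higher and 1 lower. Astrocyte markers (5 genes) summed to 921 and 933 CPM against 1003 and 1372 CPM, although 3 of the 5 were lower and 0 higher. OPC markers (6 genes) summed to 568 and 608 CPM with WT-H3.3 and to 1922 and 2146 CPM with H3.3K27M, with 4 of the 6 higher and 2, Pdgfra and Sox10, lower. In bulk libraries, fewer cells of a type and less RNA per cell cannot be told apart, and the part of these cell types in the differences of Axin2, Nkd1, Lgr5 and Tcf7 was not tested.

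The H3.3K27M difference in OPCs was set against that in ESCs by an interaction in 1 model of 34 libraries. Of 9 genes tested 3 differed, beside 16.9% of the 16298 genes tested. Axin2 differed by 2.55 (SE 0.25, adjusted p = 2.02e-09), since it had 59.5 ± 11.3 CPM (SD, n = 8) with WT-H3.3 and 54.6 ± 5.3 CPM with H3.3K27M in ESCs. Tcf7 differed by -2.07 (SE 0.29, adjusted p = 1.4e-06). Rnf43 also passed (adjusted p = 0.00375), although the size of its interaction depends on the prior count of the fit because both H3.3K27M OPC libraries are at 0. Lgr5 missed the threshold (1.79, SE 0.75, adjusted p = 0.0876), and passed it without the WT-H3.3 ESC library of 8 h replicate 2 (adjusted p = 0.0335) or the H3.3K27M ESC library of 4 h replicate 1 (adjusted p = 0.0398). Nkd1 differed by 2.30 (SE 0.42, adjusted p = 0.000103) with chromosome 8 kept. These interactions compare the line difference within each stage, though the libraries of the stages stand apart as described.

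In RA-treated cells the study asked whether H3.3K27M or H3.3K27L alters gene expression early in differentiation. Lines were compared with Dox time in the model, so that libraries of 24 and 72 h were each set against WT-H3.3 at the same time. Replicates were lacking for every line and time. The p-values of these line comparisons therefore rest on how far the differences at 24 and 72 h disagree, not on spread between replicates. The libraries of these times also stand apart as described. H3.3K27M and H3.3K27L share the 2 WT-H3.3 libraries.

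With H3.3K27M, 0 of 8 genes tested passed (edgeR), beside 0.0163% of the 12233 genes tested. At an unadjusted p under 0.05 there was 1, beside 751 of the 12233 genes, and DESeq2 also called 0. DESeq2 gave no adjusted p for Rnf43 and Cdx1, so it could not call either gene. Rnf43 came nearest, with 8.64 CPM at 24 h and 1.78 CPM at 72 h in WT-H3.3 and 3.25 and 1.94 CPM in H3.3K27M (-1.16 on the log2 scale, SE 0.45, adjusted p = 0.726). Axin2 had 72.5 and 26.7 CPM with WT-H3.3 and 78.7 and 35.8 CPM with H3.3K27M (0.19, SE 0.18).

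With H3.3K27L, 1 of 8 genes passed, beside 3.64% of all genes tested. Lgr5 had 12.96 CPM at 24 h and 19.1 CPM at 72 h in WT-H3.3, 15.8 and 10.3 CPM in H3.3K27M, and 3.87 and 8.25 CPM in H3.3K27L. Both H3.3K27L libraries lay below the other 4, and the log2 difference from WT-H3.3 was -1.51 (SE 0.39, adjusted p = 0.0379). The call rests on the 24 h library, since without it the difference was -0.93 (adjusted p = 0.27), and it was lost when Dox times were pooled without a time term (-1.43, adjusted p = 1), a fit in which 0 genes of all passed. Nkd1, in the fit that kept chromosome 8, had 33.8 and 19.6 CPM with WT-H3.3 and 18.3 and 4.44 CPM with H3.3K27L (-1.26, SE 0.30, adjusted p = 0.0291).

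Other genes of the H3.3K27L comparison did not pass. Dkk1 had 19.3 and 6.68 CPM with WT-H3.3 and 34.3 and 15.2 CPM with H3.3K27L (0.89, SE 0.35, adjusted p = 0.155), higher at both times. Leaving out the 24 h library of WT-H3.3 made Dkk1 1.55 higher (adjusted p = 0.0068) and leaving out the 72 h library of H3.3K27L 1.13 higher (adjusted p = 0.0198), while without the 24 h library of H3.3K27L it was 0.44 (adjusted p = 0.738). Lef1 had 24.8 and 11.6 CPM with WT-H3.3 and 20.6 and 3.17 CPM with H3.3K27L (-0.68, SE 0.33, adjusted p = 0.261). Lef1 passed when the 24 h library of WT-H3.3 was left out (-1.29, adjusted p = 0.0397) and when that of H3.3K27L was left out (-1.78, adjusted p = 0.0284), while without the 72 h library of H3.3K27L it was -0.33 (adjusted p = 0.75). T had 0 reads in both WT-H3.3 libraries and 1 in each H3.3K27L library.

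**Figure D3:**
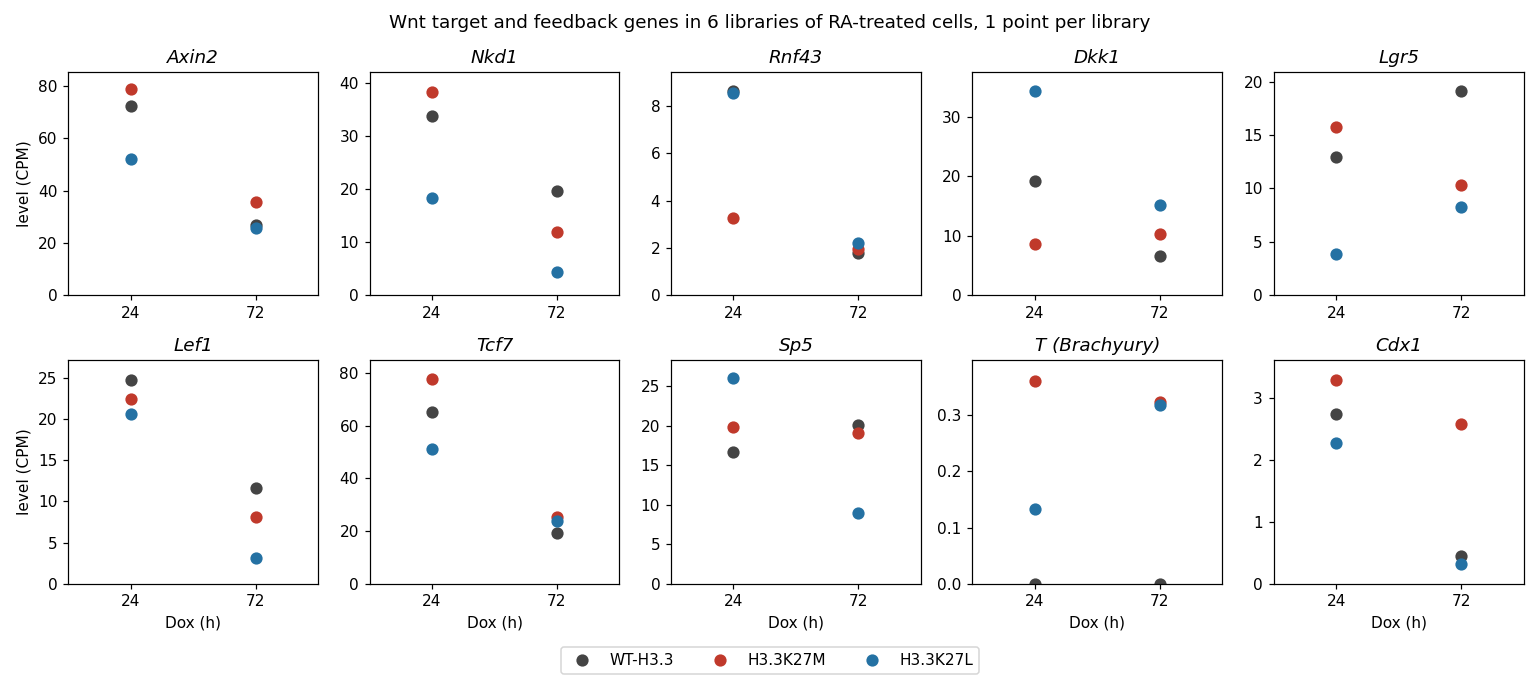
Level in CPM of each gene in the 6 libraries of RA-treated cells against hours of Dox, WT-H3.3 in grey, H3.3K27M in red and H3.3K27L in blue, with 1 point per library. Lgr5 is lowest in H3.3K27L at both times, and Nkd1 is lower in H3.3K27L than in WT-H3.3 at both times.

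Of the other pathway genes 67 could be tested in RA-treated cells. None passed with H3.3K27M, and with H3.3K27L 2 rose and 3 fell (7.46%, beside 3.64% of all genes). The median difference of the 67 with H3.3K27L was -0.14 on the log2 scale, beside 0.01 over all genes. Frzb rose from 7.27 CPM at 24 h and 40.1 CPM at 72 h to 20.3 and 114 CPM (1.49, SE 0.23, adjusted p = 0.00465). Sp8, a zinc finger factor related to Sp5, was higher with 20.3 to 21.8 CPM against 4.01 to 9.62 CPM (1.56, SE 0.32). Lrp6, the co-receptor that Dkk1 blocks, was lower (log2 difference -1.22, SE 0.16, adjusted p = 0.00236), with 77.1 to 129 CPM against 153 to 336 CPM. Dkk2 (-1.62, SE 0.41) and the ligand Wnt6 (-1.16, SE 0.30) were the others. Extraembryonic endoderm markers (7 genes) summed to 613 to 805 CPM with WT-H3.3, 359 to 596 CPM with H3.3K27M and 1653 to 1842 CPM with H3.3K27L, with 5 of the 6 tested higher in H3.3K27L, where 1.5% of all genes were higher and 2.13% lower. ESC markers summed to 102 to 154 CPM with WT-H3.3 and 276 to 359 CPM with H3.3K27L, with 3 of the 5 tested higher. Of the 6 RA response genes tested 2 were lower in H3.3K27L and 0 were higher. Their sum was nevertheless 522 to 629 CPM with WT-H3.3 and 567 to 1148 CPM with H3.3K27L. The part of these marker sets in the differences of Lgr5, Nkd1 and the pathway genes was not tested.

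In ESCs, where the study looked for the earliest effects of the mutants and of PRC2 inhibition, 8 of the 10 genes could be tested. Lgr5, at or under 1.27 CPM in every ESC library, was left out for low counts. Nkd1, at or under 3.34 CPM, did not pass in any line comparison of ESCs with chromosome 8 kept (0.30 with H3.3K27M, -0.54 with H3.3K27L, 0.28 with GSK343). The 3 comparisons share the 8 WT-H3.3 libraries. None of the 8 genes passed both thresholds in any of them (edgeR).

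Axin2 and Cdx1 were modestly higher in H3.3K27L. Axin2 had a lowest, median and highest level of 47.2, 58.8 and 73.9 CPM in WT-H3.3, 48.1, 55.4 and 64.8 CPM in H3.3K27M, 58.3, 86.5 and 106.5 CPM in H3.3K27L and 36.9, 52.0 and 68.9 CPM with GSK343. The H3.3K27L libraries lay above both WT-H3.3 libraries of the same time at 4, 8 and 24 h, by 1.66, 1.58 and 1.66-fold, and did not at 72 h (0.947-fold). There the shallow library, at 58.3 CPM, rests on 4 reads, and the other had 73.3 CPM, above both WT-H3.3 libraries. Over all times the difference was 0.54 on the log2 scale (SE 0.10, 1.46-fold, adjusted p = 0.00163), under the fold threshold, and 0.56 (adjusted p = 0.00177) without the shallow library. Without the other H3.3K27L library of 72 h, which leaves the shallow one alone at that time, it was 0.44 (adjusted p = 0.333).

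Cdx1 followed the same course. It had 37.6, 51.1 and 69.9 CPM in WT-H3.3 and 14.6, 75.9 and 136 CPM in H3.3K27L. The H3.3K27L libraries were both higher at 4, 8 and 24 h (1.53, 1.77 and 1.71-fold) and not at 72 h (0.708-fold). There the shallow library, at 14.6 CPM, rests on 1 read, and the other had 42.7 CPM against 43.3 and 37.6 CPM. The difference was 0.55 on the log2 scale (SE 0.13, adjusted p = 0.00735), 0.58 (adjusted p = 0.00537) without the shallow library and 0.16 (adjusted p = 0.914) without the other H3.3K27L library of 72 h.

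Lef1, Sp5 and T divided replicates more than lines. In H3.3K27L, replicate 1 had 1.36 to 3.25 CPM of Lef1 over the 4 times, and replicate 2 had 11.1 to 17.7 CPM at 4 to 24 h. T had 3.26 to 4.43 CPM in replicate 1 and 8.90 to 19.8 CPM in replicate 2 at 4 to 24 h, and Sp5 had 12.7 to 25.6 and 39.4 to 68.3 CPM. In the shallow library of 72 h T had 4 reads, Lef1 had 1 and Sp5 had 0. In WT-H3.3 and H3.3K27M together the order was opposite and the gap smaller, with 2.93 to 7.77 CPM of Lef1 in replicate 1 and 1.30 to 3.21 CPM in replicate 2, and with 2.16 to 5.36 and 0.325 to 3.03 CPM of T. Replicate differences ran opposite to those of WT-H3.3 across all genes as well in H3.3K27L at 4, 8 and 24 h. In each line without GSK343, the replicate with more Lef1, Sp5 and T at 4 to 24 h had the lower length slope. The part of the way the libraries were made in this was not tested. Over all times T was 1.27 higher on the log2 scale with H3.3K27L (SE 0.48, adjusted p = 0.106), and 1.099 (adjusted p = 0.146) without the shallow library. Leaving out 1 library at a time put T between 0.86 (adjusted p = 0.263, without H3.3K27L 24 h replicate 2) and 2.10 (adjusted p = 0.125, without H3.3K27L 72 h replicate 1). Sp5 was 0.56 higher (SE 0.28, adjusted p = 0.238) and Lef1 0.46 higher (SE 0.52, adjusted p = 0.621). With the H3.3K27L replicate numbers crossed and used as a block, a fit chosen after the values were seen, T passed (1.28, SE 0.34, adjusted p = 0.0155), Sp5 passed on the adjusted p alone (0.62, SE 0.15, adjusted p = 0.00707) and Lef1 did not (adjusted p = 0.339). Primitive streak and mesoderm markers (7 genes, such as Mixl1 and Eomes) summed to 24.1 to 53.5 CPM in WT-H3.3 and, without the shallow library, where the sum rests on 5 reads, 34.5 to 67.6 CPM in H3.3K27L, and 0 of the 3 tested passed between these lines.

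The count of genes passing both thresholds in H3.3K27L was thus 0 of 8, beside 3.43% of the 14012 genes tested, and 1 (T) by DESeq2. At an unadjusted p under 0.05 there were 4 of 8, beside 3225 of the 14012 genes. The median difference of the 8 was 0.55 on the log2 scale, beside 0.00 over all genes. Rnf43 had a median of 1.04 CPM in WT-H3.3 and 1.85 CPM in H3.3K27L (0.98, SE 0.42, adjusted p = 0.167), and Dkk1 had 1.503 and 1.107 CPM (-0.80, SE 0.40, adjusted p = 0.242). Tcf7, the steadiest of the genes, had 72.3 to 97.8 CPM in WT-H3.3 and 84.1 to 100.4 CPM in H3.3K27L without the shallow library (0.15, SE 0.09).

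With H3.3K27M 0 of 8 passed, beside 0.0143% of all genes, and 0 by DESeq2. DESeq2 gave no adjusted p for Dkk1, Lef1, Rnf43 and T, so it could not call these genes. At an unadjusted p under 0.05 there were 2 of 8, beside 1619 of the 14012 genes tested. Dkk1 had 1.101, 1.503 and 2.76 CPM (lowest, median and highest) in WT-H3.3 and 0.126, 0.597 and 1.88 CPM in H3.3K27M (-1.06, SE 0.36, adjusted p = 0.246). Without the H3.3K27M library of 24 h replicate 1 it passed (-1.79, adjusted p = 0.0425). With the replicate block Dkk1 differed by -1.1 (adjusted p = 0.14). Sp5 had a median of 19.0 CPM in WT-H3.3 and 12.5 CPM in H3.3K27M (-0.59, SE 0.27, adjusted p = 0.409), and -0.61 with the replicate block (SE 0.25, adjusted p = 0.3). Both genes were lower with H3.3K27M in 8 of 8 pairs of libraries of the same time and replicate number. The other member genes were lower in 2 (Tcf7 and Cdx1) to 7 (Lgr5 and Lef1) of these pairs. The share of all genes lower in 8 of 8 was not computed. Such pairs are Dox times of the same lines and replicate series, so they are not independent of one another. Dkk1 and Sp5 were also the genes at an unadjusted p under 0.05 in these same libraries, so the pairs add no separate evidence. Dkk1 had only 1 to 16 reads in the H3.3K27M libraries. Axin2, Tcf7 and Cdx1, which have the deepest counts, differed by -0.11 (SE 0.10), 0.08 (SE 0.09) and 0.06 (SE 0.12).

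With GSK343 0 of 8 passed, beside 0% of all genes, and 0 by DESeq2. At an unadjusted p under 0.05 there were 0 of 8, beside 678 of the 14012 genes tested. Differences ran from -0.14 (Axin2, SE 0.10) to 0.35 (T, SE 0.47).

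Whether a line difference changed from 4 and 8 h to 24 and 72 h of Dox was tested as an interaction. For H3.3K27M, H3.3K27L and GSK343 alike 0 of 8 genes and 0% of all genes passed, with 0 of the 8 at an unadjusted p under 0.05 and 0 by DESeq2. Of all 14012 genes tested 81, 177 and 107 were at an unadjusted p under 0.05. Between 72 and 4 h, over the 3 lines without GSK343, 0 of 8 passed, beside 2.21% of all genes, and 0 by DESeq2. At an unadjusted p under 0.05 there was 1 of 8, beside 3875 of the 14012 genes tested. That 1 gene was Cdx1, whose 72 h libraries include the shallow one (14.6 CPM, 1 read). Length slopes were -0.072 to 0.256 at 4 h and, without the shallow library, 0.198 to 0.261 at 72 h, and their part was not tested. Cdx1 had 36.1 ± 11.4 CPM (SD, n = 6) against 61.6 ± 14.6 CPM. The log2 difference was -0.59 (adjusted p = 0.0215), under the fold threshold. It became -1.13 (adjusted p = 0.0379) without the H3.3K27L library of 72 h replicate 1, and the adjusted p was 0.0655, 0.0672 and 0.0603 without WT-H3.3 72 h replicate 2, H3.3K27M 72 h replicate 2 and H3.3K27L 4 h replicate 2.

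**Figure D4:**
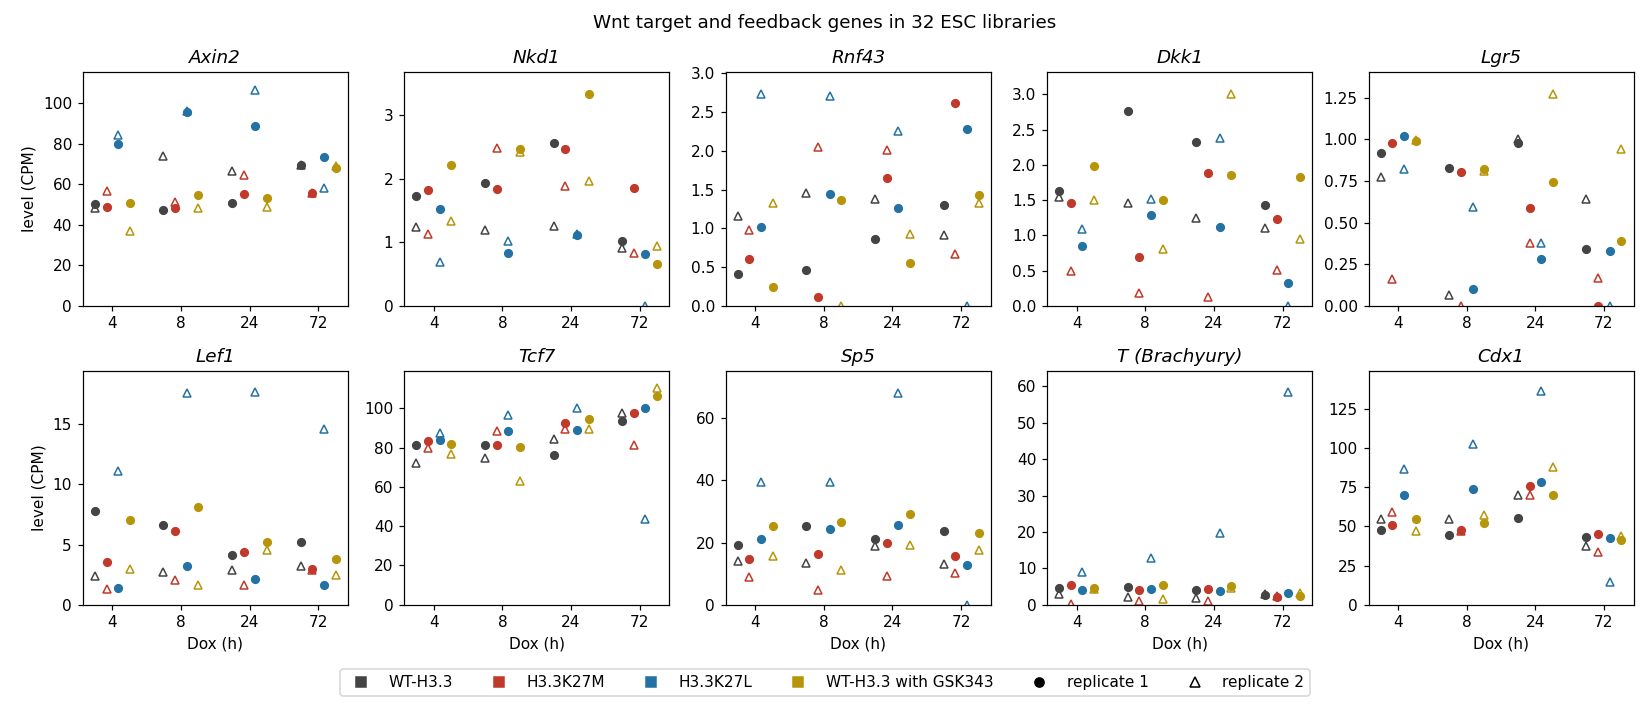
Level in CPM of each gene in the 32 ESC libraries against hours of Dox, by line or treatment (color) and replicate (filled circle, replicate 1; open triangle, replicate 2). Axin2 and Cdx1 are higher in H3.3K27L at 4 to 24 h, Lef1, Sp5 and T are high in replicate 2 of H3.3K27L alone, and the H3.3K27L triangle at 72 h is the shallow library, where the T level rests on 4 reads.

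Of the other pathway genes 61 could be tested in ESCs. None passed with H3.3K27M or GSK343, and 2 passed with H3.3K27L, both at low levels. That is 3.28%, near the 3.43% of all genes. The ligand Wnt11 had medians of 1.05 CPM with WT-H3.3 and 2.08 CPM with H3.3K27L (1.01, SE 0.28, adjusted p = 0.0259), and Rspo1, an R-spondin, had 2.06 and 0.872 CPM (-1.01, SE 0.29, adjusted p = 0.0292).

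The line difference in RA-treated cells was also set against that in ESCs. For H3.3K27M 0 of 9 genes differed, beside 0.00614% of all genes, and 0 by DESeq2. At an unadjusted p under 0.05 there were 0 of 9, beside 717 of the 16298 genes tested. For H3.3K27L 0 of 9 differed, beside 0.436%, and 0 by DESeq2. There 2 of 9 were at an unadjusted p under 0.05, beside 1679 of the 16298 genes. Axin2 came nearest, at 0.54 higher with H3.3K27L in ESCs and -0.33 (SE 0.19) in RA-treated cells (a difference of -0.86, SE 0.25, adjusted p = 0.113).

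**Figure D5:**
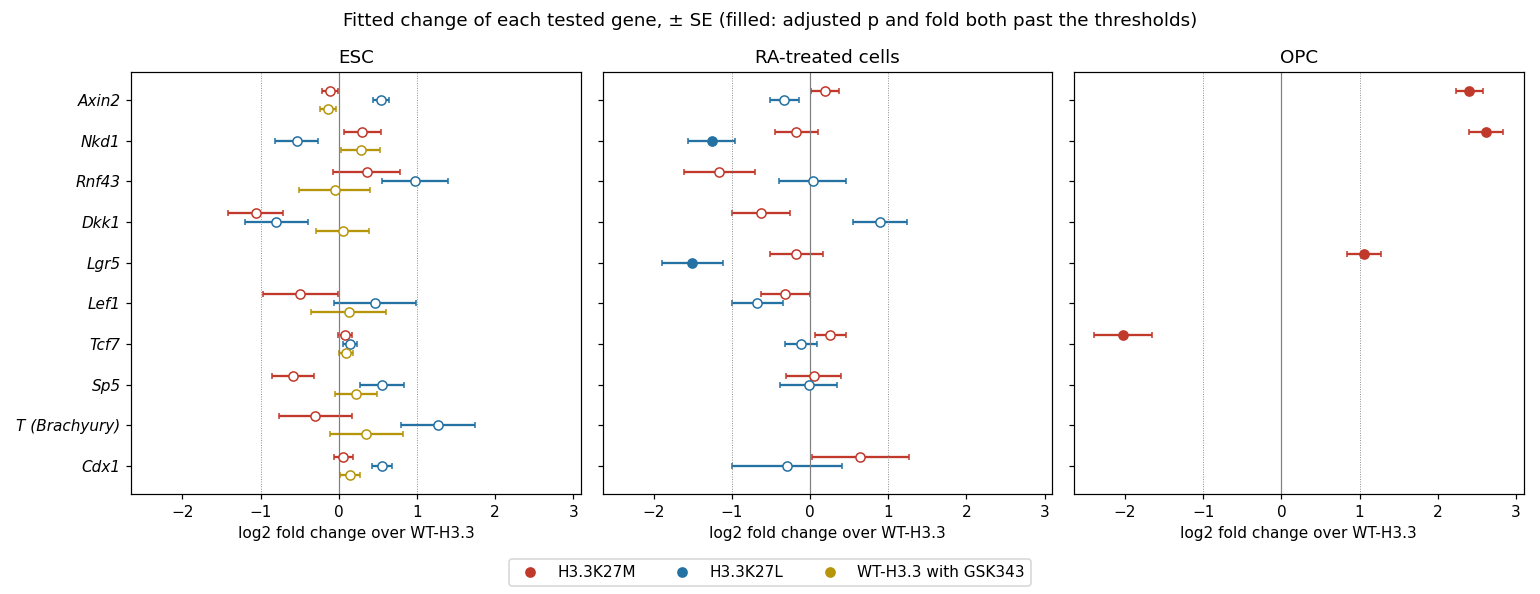
Fitted log2 fold change over WT-H3.3 of each gene in ESCs, RA-treated cells and OPCs, with bars of 1 SE and dotted lines at 2-fold. Filled points passed both thresholds, which in OPCs are Axin2, Lgr5, Tcf7 and Nkd1 and in RA-treated cells Lgr5 and Nkd1 with H3.3K27L. Nkd1 comes from the fit that kept chromosome 8, and genes without a point were left out for low counts.

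Between RA-treated cells at 24 h and ESCs 6 of 9 genes passed, beside 43.4% of all genes, over the 3 lines and without GSK343 (3 libraries against 24). Dkk1, Lgr5, Lef1 and Rnf43 were higher, and T and Cdx1 were lower. Lgr5 had 3.87 to 15.8 CPM against 0 to 1.02 CPM (4.22 on the log2 scale, SE 0.35, adjusted p = 9.64e-13), and Dkk1 had 8.57 to 34.3 CPM against 0 to 2.76 CPM (3.86, SE 0.28). Lef1 had 20.6 to 24.8 CPM, above every ESC library (1.30 to 17.7 CPM), and was 2.20 higher (SE 0.41, adjusted p = 1.44e-05), though without the H3.3K27L library of 24 h it was 1.54 higher (adjusted p = 0.061). Rnf43 had 3.25 to 8.64 CPM against 0 to 2.74 CPM (2.11, SE 0.33). Nkd1, with chromosome 8 kept, had 18.3 to 38.4 CPM against 0 to 2.57 CPM (4.33, SE 0.18).

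Cdx1 had 2.27 to 3.29 CPM in RA-treated cells at 24 h against 14.6 to 136 CPM in ESCs (-4.58, SE 0.36). The lowest ESC value is 1 read in the shallow library, and without that library the lowest was 33.4 CPM. T had 0 reads with WT-H3.3, 8 with H3.3K27M and 1 with H3.3K27L in RA-treated cells at 24 h (adjusted p = 2.96e-05). Axin2 and Sp5 differed by less than their errors (-0.03, SE 0.13, and 0.05, SE 0.33), and Tcf7 was slightly lower (-0.49, SE 0.13, adjusted p = 0.000956). RA-treated cells had neither LIF nor the GSK3 inhibitor of the ESC medium, so the medium, the time in RA and the stage cannot be told apart. Of the 76 other pathway genes tested 39 rose and 10 fell (64.5%, beside 43.4% of all genes). Among them 16 of 19 ligands and ligand factors were higher and 2 lower. Wnt6 rose from at most 0.753 CPM to 45.9 to 64.1 CPM, Wls, which carries Wnt ligands to the cell surface, from 11.4 to 30.5 CPM to 356 to 500 CPM, and Fzd2 from at most 9.91 CPM to 89.9 to 149 CPM. Fzd5 (a log2 difference of -3.303), Fzd10 (-2.13) and Sfrp4 (-3.98) led the genes that fell.

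Between RA-treated cells at 72 and 24 h 3 of 8 genes passed, all lower at 72 h, beside 42.9% of all genes. Lef1 had 3.17 to 11.6 CPM against 20.6 to 24.8 CPM (-1.44, SE 0.28), Tcf7 19.1 to 25.2 CPM against 51.0 to 77.8 CPM (-1.27, SE 0.17) and Rnf43 1.78 to 2.22 CPM against 3.25 to 8.64 CPM (-1.46, SE 0.42), the last no longer passing without the H3.3K27L library of 24 h (adjusted p = 0.0649). Axin2 had 25.7 to 35.8 CPM against 52.2 to 78.7 CPM, just under the fold threshold (-0.98, SE 0.15, adjusted p = 9.1e-05). Axin2 passed without either H3.3K27M or either H3.3K27L library (-1.01 to -1.06). The count of 3 became 5 without the H3.3K27M library of 24 h and 7 without that of 72 h. These 7 include Lgr5, which was higher at 72 h there (1.002 on the log2 scale) and in the main fit (0.46, SE 0.30). Nkd1, in the fit that kept chromosome 8, was lower at 72 h (-1.21, SE 0.25). Beside these falls, Eef1a1 and Ctnnb1 fell as given above, and Ctnnb1 led the pathway genes that fell (-5.02 on the log2 scale) while Ctnnbip1 led those that rose (4.00), among 11 higher and 13 lower of 67 (35.8%).

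Between RA-treated cells at 72 h and ESCs 6 of 9 genes passed, beside 57.2% of all genes, and between OPCs and ESCs (4 libraries against 16, WT-H3.3 and H3.3K27M) 9 of 9, beside 67%. The median of all genes shifted by -0.21 and -0.25 on the log2 scale. Lgr5 was higher in RA-treated cells at 72 h (8.25 to 19.1 CPM, 4.501 on the log2 scale, SE 0.39) and in OPCs (11.5 to 28.3 CPM, 4.89, SE 0.32) than in ESCs, and Dkk1 was higher in RA-treated cells at 72 h (3.05, SE 0.36). Tcf7 differed by -1.997 on the log2 scale in RA-treated cells at 72 h and by -4.29 in OPCs, and Axin2 by -1.24 and -1.37, where the DESeq2 and RLE scalings put Axin2 just inside the fold threshold in both (-0.84 and -0.99 with RLE). The Axin2 value for OPCs averages lines that differ, with 59.5 CPM in ESCs and 10.4 CPM in OPCs for WT-H3.3, and 54.6 and 55.1 CPM for H3.3K27M. T and Cdx1 were lower in both, T without the H3.3K27M library of 72 h no longer passing in RA-treated cells at 72 h (adjusted p = 0.0965). With chromosome 8 kept, Nkd1 was higher in RA-treated cells at 72 h (2.84, SE 0.24) and in OPCs (2.68, SE 0.19). Sp5, Lef1 and Dkk1 were lower in OPCs. Rnf43 passed as lower, but with WT-H3.3 it had 0.68 and 2.03 CPM in OPCs beside a mean of 0.992 CPM in ESCs, and with H3.3K27M it had 0 and 0 reads in OPCs. Cdx1, at 0 reads in 4 OPC libraries, was at least 135-fold lower there than its mean of 52.4 CPM in WT-H3.3 and H3.3K27M ESCs (a floor of 3 reads per library). Of the 76 other pathway genes tested 38 rose and 13 fell in RA-treated cells at 72 h (67.1%) and 30 rose and 22 fell in OPCs (68.4%). Whether any of these values is due to the stage was not tested, because the library sets move with it.

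As a description across all 26 conditions, which the library sets also shape, the genes with a pattern most like that of Axin2 among 10643 genes whose mean was 5 CPM or more were Smarcd1 (Pearson r of 0.938), Arhgap11a (0.929), Hjurp (0.92), Zfp161 (0.919) and Zbtb12 (0.914). Of the Wnt target and feedback genes Cdx1 (0.637) and Sp5 (0.617) came nearest, and Lgr5 (-0.483) ran opposite.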

How the data were processed

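The authors aligned single-end reads with STAR 2.7.1 to mm9, allowing up to 10 mismatches, and deposited raw counts per gene, without normalization, for the 42 RNA-seq libraries. QuantSeq 3′ and KAPA mRNA kits were used, and the kit of each library is not given in the sources used here. The ChIP-seq samples were not analysed here. Of 55471 genes 32589 matched the annotation of NCBIM37 (mm9), with 98.2% of all counts. The 2532 genes of chromosome 8 (5.85% of counts, 1435 by annotation and the rest by their place between such genes) were left out of tests and library sizes, as in the study.

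Counts were fitted with edgeR 4.0.16 (R 4.3.3; TMM, filterByExpr, quasi-likelihood F test), with Benjamini-Hochberg adjustment over all genes tested. ESCs had a mean for each line and time, RA-treated cells terms for line and time, OPCs a mean for each line, and stages were compared in 1 model with a mean for each line and stage. A gene passed with an adjusted p below 0.05 and a change of more than 2-fold (ratio over 2 or below 0.5). Levels are TMM-scaled CPM. DESeq2 1.42.0 was an alternative, as were RLE scaling, no filter, chromosome 8 kept, no fold threshold, a replicate block, fewer libraries in the model, and each library left out in turn. The model was tested on simulated data with known fold changes. A pseudocount of 0.5 CPM was used for correlations only. Python 3.11.15, NumPy 2.4.6, pandas 2.3.3 and Matplotlib 3.10.9 made the tables and figures.

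Values of all 10 member genes were taken in every comparison, but not every gene is named in each. The other pathway genes that are named are up to 3 in each direction, those with the lowest adjusted p. The members and gene lists were chosen with earlier results of these data known. Broadly used genes, the crossed replicate numbers and the fit that also leaves out the shallow library were chosen after seeing the data, and 1 gene of the first list is not reported here. No pair of libraries was a copy (lowest chi-square per gene 1.85 over 861 pairs).

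To see if replicate numbers pair the libraries, the difference between replicates was correlated with that of WT-H3.3 over 10478 genes. The correlation was 0.517, 0.651, 0.531 and 0.608 for H3.3K27M at 4, 8, 24 and 72 h, so the numbers pair these lines. For H3.3K27L it was -0.498, -0.659, -0.557 and 0.207, and for GSK343 0.108, -0.205, -0.305 and 0.597, so there they do not. The 72 h OPC columns name replicate 2 where the labels name replicate 1, so the OPC columns were matched to their groups only.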

Additional observations from a re-analysis of the deposited data

Results flagged for a closer look

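In groups of 8 ESC libraries (1 line or treatment over the 4 times), 2 of 40 gene and group pairs held a library farther from the rest than Dixon's critical value allows, and chance alone gives about 1 in 20. Both are the shallow H3.3K27L library of 72 h replicate 2, with 43.8 CPM of Tcf7 (lowest) and 58.3 CPM of T (highest, 4 reads).

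The H3.3K27M difference was not the same in OPCs as in ESCs by a test of the interaction for Axin2 (2.55 on the log2 scale), Tcf7 (-2.07) and Rnf43 (-6.86, a value that depends on the prior count, since 2 OPC libraries are at 0).

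Nkd1, outside the tests because of its chromosome, was 2.62 higher on the log2 scale in H3.3K27M OPCs in the fit that kept chromosome 8.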

How the results depend on the processing

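Of 564 counts of passing genes recomputed over the 17 comparisons, 549 stayed within 1.5 times the reported count, and no passing value changed sign. Many of these counts were 0 to begin with or left 1 library out of a large model, so they had little room to move. Without a filter on low counts, 1 gene passed in ESCs with H3.3K27M (Dkk1) and 1 with H3.3K27L (T). For H3.3K27L in ESCs the count was 2 without the fold threshold (Axin2 and Cdx1), 1 with DESeq2 (T) and 1 with crossed replicate numbers as a block (T), with or without the shallow library. Between 72 and 4 h in ESCs it was 1 without the fold threshold (Cdx1). For H3.3K27L in RA-treated cells it was 2 with chromosome 8 kept (Nkd1 added) and 0 with Dox times pooled. The cause was not tested, except that no filter and chromosome 8 kept test more genes.

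Leaving out libraries 1 at a time, the count ran from 0 to 1 in ESCs for H3.3K27M and for 72 against 4 h, from 0 to 0 for H3.3K27L, from 1 to 3 for H3.3K27L in RA-treated cells and from 3 to 7 for 72 against 24 h of RA-treated cells.

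With the replicate block 0 of 8 genes passed in every ESC comparison, and for H3.3K27M, the paired line, Dkk1 was -1.1 on the log2 scale (adjusted p = 0.14). In OPCs the labels' replicate numbers coincide with Dox time, and with that block 3 genes passed. In the stage comparisons, where the block covered ESC libraries only, 6, 6 and 9 genes passed for RA-treated cells at 24 h, at 72 h and OPCs against ESCs, and 0, 0 and 3 for the interactions, so it changed no call. No paired analysis was possible in RA-treated cells because each group has 1 library. Counts over all genes that moved by more than 1.5 times were as follows. Without the filter, 152 passed in place of 2 (H3.3K27M in ESCs), 750 in place of 481 (H3.3K27L), 26 in place of 0 (GSK343), 514 in place of 310 (72 against 4 h), 8 and 1 in place of 0 (change of the H3.3K27L and GSK343 differences with time) and 78 in place of 2 (H3.3K27M in RA-treated cells). Without the fold threshold, 1141 in place of 481 and 1258 in place of 310 passed in ESCs, 851 in place of 445 and 8496 in place of 5242 in RA-treated cells, 6423 in place of 3482 in OPCs and 11113 in place of 7070 between RA-treated cells at 24 h and ESCs. With DESeq2, 4 in place of 2 passed for H3.3K27M in ESCs, 198 in place of 310 for 72 against 4 h, 16 in place of 2 for H3.3K27M in RA-treated cells, and 3 in place of 1 and 168 in place of 71 for the H3.3K27M and H3.3K27L interactions of RA-treated cells with ESCs. The block gave 23 in place of 2 for H3.3K27M in ESCs and 108 in place of 71 for that H3.3K27L interaction. Only the libraries compared gave 0 in place of 2 for H3.3K27M in ESCs, pooled Dox times 0 in place of 2 and 445, and ESC libraries of 24 and 72 h alone 0 in place of 1 and 9 in place of 71 for the interactions. Depth limits Lgr5, Rnf43, Dkk1 and Nkd1 in ESCs and all but Axin2, Lgr5, Tcf7 and Nkd1 in OPCs.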
